A study of Mus musculus with 13 samples.

Results

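A set of genes that encode inhibitory receptors of immune cells was followed in bulk RNA-seq of mouse brain: 8 of 55401 annotated genes, taken by symbol from the deposited gene annotation. They are the Siglecs *Cd22*, *Cd33* and *Siglece*, the immunoglobulin-like receptors *Lilrb4a*, *Pirb* and *Cd300a*, and the checkpoint receptors *Lag3* and *Havcr2*. The genes were chosen with the group differences of these libraries already known. Their levels and differences below are therefore a description of all 8 members, without a printed p-value for any of them. The tests concern genes outside the set. The lists of those genes were also chosen with earlier results of these data known, so their p-values are no independent support.

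The study fed male mice cuprizone (CPZ), a copper chelator that kills oligodendrocytes and strips myelin from the brain, and asked how the tissue changed during demyelination and after the toxin was withdrawn. The CTL group (5 libraries) ate control diet for 6 weeks. The CPZ group (4 libraries) ate 0.3% CPZ for 4 weeks and was taken at that point, and the recovery (RCV) group (4 libraries) ate 0.3% CPZ for 4 weeks and then control diet for 2 weeks. No allele or transgene was named for any group, the strain was C57BL/6J, and the labels gave an age of 6 to 8 weeks at the start, the study's methods a somewhat older one. One frozen hemisphere was used per brain after saline perfusion, so every value is an average over the hemisphere, and fewer cells of a type cannot be told apart from less RNA per cell. The protocols speak of 4 control, 3 CPZ and 3 recovery mice, which is fewer than the libraries. Elsewhere 13 collected samples (5, 4 and 4) are described, each with bulk RNA-seq. No label ties a library to a mouse, so p-values measure the spread between these samples. CTL and RCV brains were taken 2 weeks later than CPZ brains, and age at collection cannot be told apart from the diet in comparisons with CPZ.

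Library totals ran from 4605100 to 8197289 estimated counts, lowest in the RCV group (4605100 to 6990717). One count was worth 0.122 to 0.217 CPM (counts scaled to the library total, adjusted for composition). The 15 microglia markers summed to 433 to 521 CPM in CTL, 1529 to 3216 CPM in CPZ and 663 to 906 CPM in RCV, without overlap. The 10 markers of mature oligodendrocytes (MOL) summed to 2054 to 4008 CPM in CTL, 838 to 1438 CPM in CPZ and 2891 to 4911 CPM in RCV.

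Inhibitory receptors set the threshold at which immune cells respond. Most carry an immunoreceptor tyrosine-based inhibitory motif (ITIM) in the cytoplasmic tail, which Src-family kinases phosphorylate and which then recruits the phosphatases SHP-1 (*Ptpn6*), SHP-2 (*Ptpn11*) or SHIP1 (*Inpp5d*). Siglecs read sialic acids on neighbouring glycoproteins and glycolipids, whereas the other families bind MHC molecules, exposed phospholipids, galectins or myelin proteins. In the brain, microglia are the main cells known to carry such receptors, and LAG-3 and TIM-3 (*Havcr2*) are best known from exhausted T cells.

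In the mouse genome (GRCm38, GENCODE M21), 4 of the 8 genes lie on chromosome 7. *Cd22* is at chr7:30865402-30880342 on the minus strand, near *Mag* (chr7:30899176-30914873, minus strand), the myelin Siglec. *Cd33* is at chr7:43524216-43544428, *Siglece* at chr7:43651070-43660161 and *Pirb* at chr7:3711409-3720391, all on the minus strand. *Lag3* is at chr6:124904361-124911705 on the minus strand, next to *Cd4*, *Lilrb4a* at chr10:51490956-51496611, *Havcr2* at chr11:46454935-46481255 and *Cd300a* at chr11:114890041-114904654, the last 3 on the plus strand. The values count reads over the exons of each gene.

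Promoters from RefSeq (GRCm38.p6, 250 bases before to 50 after the start) were at hand for 6 of the 8 genes, all but *Lag3* and *Lilrb4a*. They were searched on both strands for GAGGAAGT, a word with the GGAA core bound by ETS factors such as PU.1 of myeloid cells, which was picked after the promoters had been looked at. *Havcr2* and *Pirb* held it, as did 3.2% of 32851 promoters of that length. The stretches upstream of the start that carry the word (in capitals) show it 8 bases before the start in *Havcr2* (chr11:46454897-46454930, plus strand) and 120 bases before it in *Pirb* (chr7:3720469-3720528, minus strand):
Havcr2: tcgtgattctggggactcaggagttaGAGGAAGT
Pirb: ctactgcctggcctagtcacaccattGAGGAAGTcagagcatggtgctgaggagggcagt
The match is a description of the letters only. The values of *Havcr2* and *Pirb* are given below, and *Pirb* had too few counts for the courses of the pair to be compared.

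Of the Siglecs, *Cd22* and *Cd33* were higher in CPZ than in CTL, and *Siglece* showed no separation of the groups. *Cd22*, known from B cells as a receptor for α2,6-linked sialic acid, was close to absent in CTL. Its estimated counts were 0, 1, 2, 0 and 0 in CTL1 to CTL5. In CPZ1 to CPZ4 they were 53, 51, 34 and 50, and in RCV1 to RCV4 they were 10, 14, 5 and 14. All CPZ libraries lay above all RCV libraries, and all RCV libraries above all CTL libraries. Mean levels were 0.0915 ± 0.137 CPM in CTL (SD, n = 5), 6.25 ± 1.2 CPM in CPZ (n = 4) and 1.93 ± 0.911 CPM in RCV (n = 4). The CTL group holds 3 counts in all, so the ratio of the summed counts is loosely bounded: 67.7 for CPZ over CTL (95% counting interval 22.8 to 331) and 20.4 for RCV over CTL (6.54 to 103). The fitted log2 difference was 5.82 (SE 0.502) in CPZ and 4.11 (SE 0.611) in RCV. CTL3, which gave 2 of the 3 control counts, weighed on both: without it they were 6.77 and 5.07.

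*Cd33*, a myeloid Siglec whose human counterpart is a risk locus for Alzheimer's disease, was measured in every library. Its counts in CTL1 to CTL5 were 70, 77, 50, 54 and 49. In CPZ1 to CPZ4 they were 258, 313, 163 and 223, and in RCV1 to RCV4 they were 92, 93, 64 and 67. On the CPM scale, which removes depth, the 3 groups did not overlap: 7.68 to 11.6 CPM in CTL, 22.6 to 38.0 in CPZ and 12.3 to 15.1 in RCV. The difference was 1.78 (SE 0.153) on the log2 scale for CPZ against CTL, which is 3.43-fold, and 0.59 (SE 0.168) for RCV against CTL.

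*Siglece*, the ITIM-bearing Siglec of mouse myeloid cells, was near the floor of the assay throughout. CTL1 to CTL5 gave 4, 8, 7, 0 and 3 counts, CPZ1 to CPZ4 gave 3, 9, 13 and 2, and RCV1 to RCV4 gave 2, 1, 5 and 1. The groups overlapped fully, and the gene failed the filter on low counts. The ratio of summed counts of CPZ to CTL was 1.33 (95% counting interval 0.727 to 2.44). That interval covers counting error only and leaves out the spread between libraries, which was wide. Fitted without the filter, the log2 difference was 0.42 (SE 0.615). These counts therefore cannot settle whether *Siglece* changed as much as *Cd33*.

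**Figure D1:**
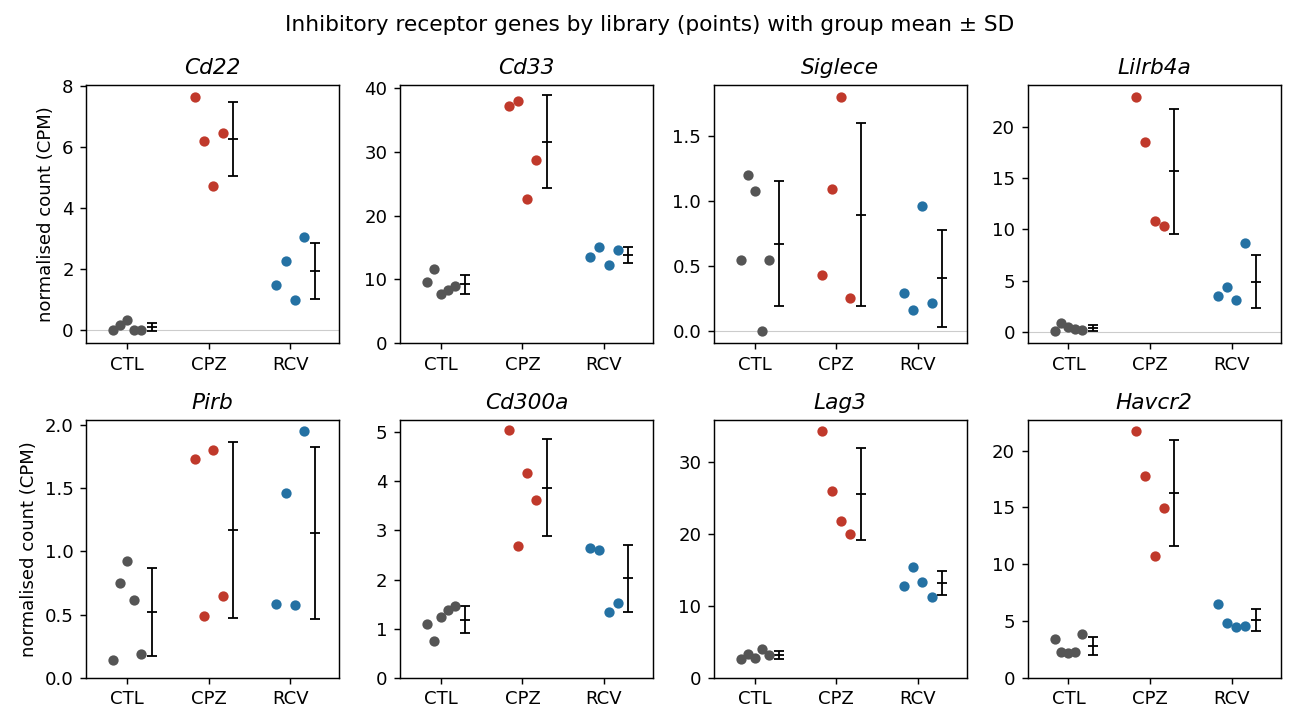
Normalised counts (CPM, linear axis, one scale per gene) of the 8 receptor genes in the CTL (n = 5), CPZ (n = 4) and RCV (n = 4) groups, with points for libraries and bars for mean ± SD. For *Cd22*, *Cd33*, *Lilrb4a*, *Lag3* and *Havcr2* the 3 groups are separate with CPZ highest and CTL lowest, for *Cd300a* CPZ is separate from both, and for *Siglece* and *Pirb* the groups overlap.

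Among the immunoglobulin-like receptors, *Lilrb4a* differed most between the groups, *Cd300a* by less, and *Pirb* not clearly. *Lilrb4a* encodes gp49B, an ITIM receptor of mast and myeloid cells that binds integrin αvβ3. CTL1 to CTL5 had 1, 5.85, 3, 2 and 1 estimated counts. CPZ1 to CPZ4 had 159, 152, 77.7 and 79.6, and RCV1 to RCV4 had 24.4, 26.8, 15.9 and 40.2. Every CPZ library was above every RCV library and every RCV library above every CTL library. Mean levels were 0.397 ± 0.308 CPM in CTL, 15.6 ± 6.12 CPM in CPZ and 4.91 ± 2.57 CPM in RCV, and the log2 difference from CTL was 5.22 (SE 0.452) in CPZ and 3.52 (SE 0.527) in RCV.

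The reads of *Lilrb4a* are partly shared with its neighbours. Of the 50-base windows of its annotated transcripts, 47.2% also occur in transcripts of other genes, mainly *Gm49339* (33.7%), a readthrough gene model that spans it, and the adjacent paralog *Lilr4b* (26.1%). *Gm49339* was assigned 0.151 ± 0.213 CPM in CTL, 6.93 ± 4.66 CPM in CPZ and 0.503 ± 0.590 CPM in RCV. *Lilr4b* was assigned 0.189 ± 0.125, 1.92 ± 0.694 and 0.843 ± 0.457 CPM in the same groups. All 3 gene models were therefore highest in CPZ, and how the reads of the locus were divided among them was decided by the authors' estimation, which left non-whole counts for *Lilrb4a* in 9 of 13 libraries. The level of *Lilrb4a* on its own is uncertain to that extent.

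*Pirb*, a receptor for MHC class I that also binds the myelin inhibitors Nogo, MAG and OMgp, was as low as *Siglece*. CTL1 to CTL5 gave 1, 5.33, 6, 4 and 1.42 counts, CPZ1 to CPZ4 gave 11.8, 4, 13 and 5, and RCV1 to RCV4 gave 4, 9.15, 3 and 8.76. The groups overlapped, and the gene failed the filter on low counts. Its mean was 0.521 ± 0.348 CPM in CTL against 1.17 ± 0.697 CPM in CPZ and 1.14 ± 0.679 CPM in RCV. Of its 50-base windows, 34.0% also occur in other genes, mainly *Gm14548*, *Pira2* and *Lilra6*, and *Pira2*, an activating relative, had no more than 1.24 counts in any library.

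*Cd300a*, which binds phosphatidylserine and phosphatidylethanolamine on dying cells, had 8, 5, 8, 9 and 8 counts in CTL1 to CTL5. CPZ1 to CPZ4 had 35.1, 22.04, 30 and 28, and RCV1 to RCV4 had 18, 16, 7 and 7. In CPM the CPZ libraries (2.67 to 5.04) lay just above the highest RCV library (2.64) and well above CTL (0.750 to 1.47), while RCV3 (1.35) fell among the CTL libraries and RCV4 (1.52) just above them. The log2 difference from CTL was 1.70 (SE 0.285) in CPZ and 0.81 (SE 0.318) in RCV.

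That difference depended on the unit for *Cd300a*. The deposited TPM values (length-scaled transcript abundances) divide counts by an effective length that the authors' software estimates per library, and TPM divided by CPM for *Cd300a* ran from 0.429 to 3.37, highest in CTL1. In TPM, *Cd300a* was 1.36 ± 1.29 in CTL and 2.20 ± 1.28 in CPZ with overlapping groups, a ratio of 1.61 against 3.28 from CPM. Fitted on log2(TPM + 1), its difference from CTL was 0.49 in CPZ and -0.067 in RCV, and it no longer passed the threshold in CPZ. The same quotient was nearly constant for *Havcr2* (0.756 to 0.805) and varied 3.52-fold for *Cd22* among its 8 libraries with at least 5 counts.

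**Figure D2:**
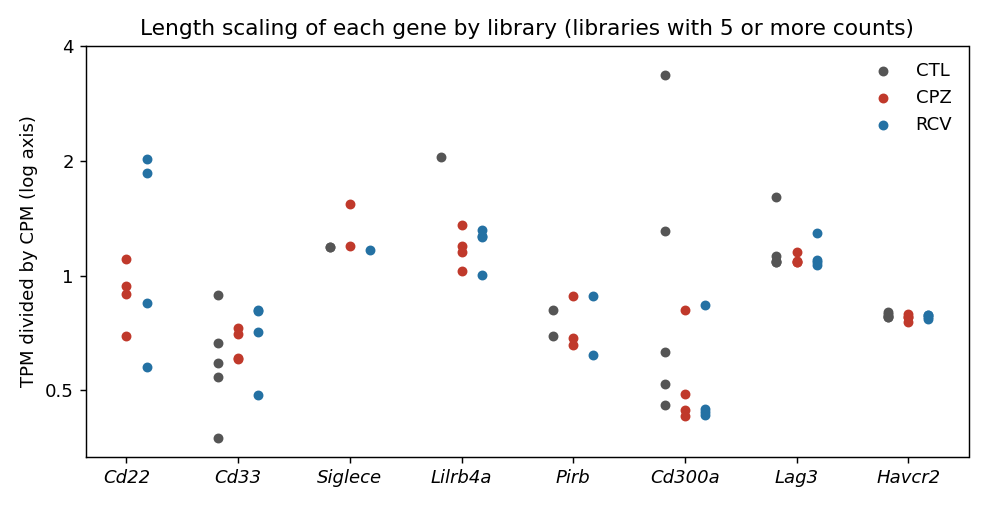
TPM divided by CPM (log axis) for each receptor gene in each library with 5 or more counts, coloured by group. A gene with the same estimated length in all libraries forms a tight cluster, as *Havcr2* does at 0.756 to 0.805, whereas *Cd300a* spreads from 0.429 to 3.37 with CTL1 at the top.

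The checkpoint receptors were both higher in CPZ, and they parted in recovery. *Lag3* encodes a relative of CD4 that binds MHC class II. Its counts were 19, 22, 18, 26 and 17 in CTL1 to CTL5. They were 238, 214, 157 and 155 in CPZ1 to CPZ4 and 87, 95, 69 and 52 in RCV1 to RCV4. The 3 groups did not overlap. The lowest RCV library (11.3 CPM) was well above the highest CTL library (3.98 CPM). The lowest CPZ library (20.01 CPM) was above the highest RCV library (15.4 CPM) by less, relative to the spread within CPZ. Mean levels were 3.15 ± 0.542, 25.5 ± 6.36 and 13.2 ± 1.70 CPM in CTL, CPZ and RCV. *Lag3* was thus 8.07-fold higher in CPZ (log2 difference 3.01, SE 0.178) and 4.19-fold higher in RCV (2.07, SE 0.191) than in CTL.

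The gene next to *Lag3*, *Cd4*, had between 0 and 148 counts per library and no such order: its means were 8.17 ± 8.60 CPM in CTL, 9.02 ± 4.34 CPM in CPZ and 9.79 ± 8.01 CPM in RCV. *Lag3* shares 0.874% of its 50-base windows with other genes.

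*Havcr2* encodes TIM-3, which binds galectin-9 and phosphatidylserine. CTL1 to CTL5 had 25, 15, 14, 15 and 21 counts, CPZ1 to CPZ4 had 151, 146, 77 and 116, and RCV1 to RCV4 had 44, 30, 23 and 21. In CPM the RCV libraries (4.43 to 6.45) stood only slightly above CTL (2.15 to 3.85), while CPZ (10.7 to 21.8) was clear of both. The log2 difference from CTL was 2.55 (SE 0.224) in CPZ, 5.84-fold, and 0.88 (SE 0.257) in RCV.

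Read against all genes, the fit called 6 of the 6 members that could be tested higher in CPZ than in CTL, where 7.66% of the 14985 genes tested were called higher and 2.5% lower. In RCV against CTL, 0.36% of genes were called higher, and 3 members were among them (*Cd22*, *Lilrb4a* and *Lag3*). In CPZ against RCV, 5 members (all but *Cd300a*) were called, beside 5.13% of all genes. Members whose groups did not overlap numbered 6, 5 and 6 in these comparisons, beside 8.25%, 2.21% and 8.26% of all genes. *Siglece* and *Pirb* had failed the count filter, and neither *Cd22* nor *Cd300a* could have passed it without CPZ libraries. Since the members were also picked from these contrasts, nothing follows from their counts of calls, which are a description only. The 3 comparisons also share their libraries. Leaving out any single library changed none of these member calls, and limma-voom, which called 0.0801% of all genes in RCV against CTL, dropped *Lilrb4a* there, as the fit of only the 2 groups dropped *Cd22*. Of the TPM scales, log2(TPM + 0.1) left *Cd33* and *Havcr2* as the only members called in CPZ against RCV. DESeq2 called 0.874% of all genes in RCV against CTL, with the same 3 members.

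**Figure D3:**
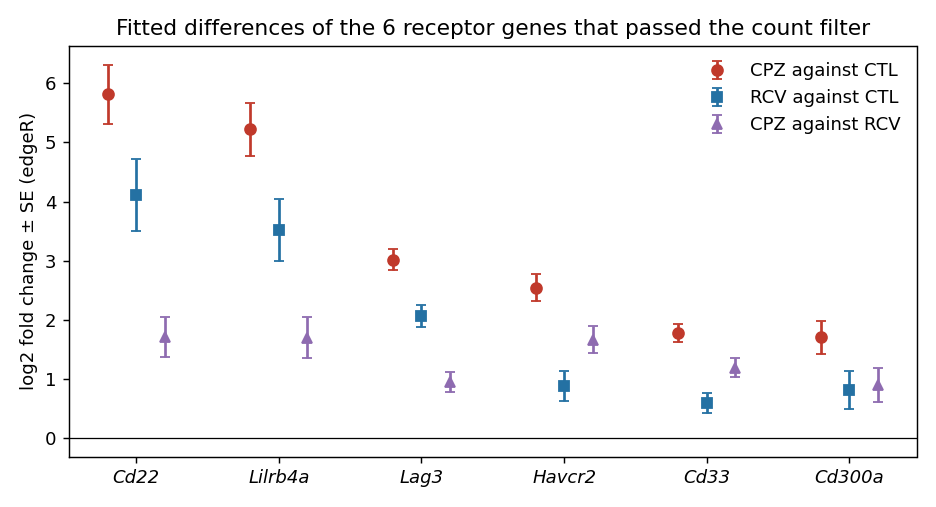
Log2 fold changes from edgeR with their standard errors for the 6 receptor genes that passed the count filter, one colour for each pair of groups compared. *Cd22* and *Lilrb4a* are farthest from 0 in both comparisons with CTL, and *Lag3* at 2.07 in RCV against CTL stands apart from *Havcr2*, *Cd33* and *Cd300a* (0.59 to 0.88).

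How much of the difference was left after 2 weeks differed between the members. On the CPM scale, the RCV mean of *Lag3* kept 44.8% of the difference between the CPZ and CTL means, with single RCV libraries between 36.3% and 54.7%. *Cd300a* kept 31.3%, *Cd22* 29.9% and *Lilrb4a* 29.6%, each with RCV libraries spread widely. The share of *Lilrb4a* also depends on how the reads of its locus were divided. *Gm49339* was at 0.151, 6.93 and 0.503 CPM and *Lilr4b* at 0.189, 1.92 and 0.843 CPM in CTL, CPZ and RCV. *Cd33* kept 20.7% and *Havcr2* 16.9%. The RCV libraries of *Lag3* (36.3% to 54.7%) did not overlap those of *Cd33* (13.9% to 26.1%) or *Havcr2* (12.1% to 27.1%). On the log2 scale the shares were larger, 68.3% for *Lag3*, 63.7% for *Lilrb4a* and 60.3% for *Cd22* against 33.9% for *Havcr2* and 33.7% for *Cd33*. On both scales as calculated, *Lag3* kept the most and *Havcr2* and *Cd33* the least of these 5. On the log2 scale, however, the CTL values of *Cd22* and *Lilrb4a* are set by the prior count of 2 added before taking logs. The fitted differences from CTL in RCV and CPZ were 4.11 and 5.82 for *Cd22*, 3.52 and 5.22 for *Lilrb4a*, and 2.07 and 3.01 for *Lag3*. The log2 order of *Lag3* against *Cd22* and *Lilrb4a* is therefore not settled. In TPM, *Cd300a* stood below CTL in RCV, with 1.15 ± 0.727 against 1.36 ± 1.29 TPM. For *Siglece* and *Pirb* the difference in CPZ was too small for such a share.

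Per length, in TPM, the order of the members also shifted. In CTL, *Cd33* was highest at 5.54 ± 1.54 TPM and *Lag3* next at 3.86 ± 1.45 TPM, with overlapping libraries. In CPZ, *Lag3* reached 28.1 ± 6.52 TPM, *Cd33* 20.9 ± 5.33, *Lilrb4a* 19.0 ± 9.26 and *Havcr2* 12.6 ± 3.59 TPM, and each of these overlapped the next in the order. *Cd22* at 5.64 ± 1.38 TPM lay below all of them without overlap, followed by *Cd300a*, *Siglece* and *Pirb*. In RCV, *Lag3* at 15.04 ± 3.30 TPM was above *Cd33* at 9.67 ± 1.77 TPM in every library (12.4 to 19.9 against 7.08 to 10.9 TPM).

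The levels of the members were set beside those of microglia markers in the same libraries. The mean log2-CPM of the 15 microglia markers was 4.46 ± 0.0985 in CTL, 6.68 ± 0.486 in CPZ and 5.14 ± 0.149 in RCV. Relative to this score, *Havcr2* was at -2.86, -2.67 and -2.73 in CTL, CPZ and RCV, with overlapping libraries in all 3 groups. *Cd33* was at -1.22 in CTL and -1.32 in RCV and lower in CPZ, at -1.71, without overlap. Its difference between CPZ and CTL was thus smaller than that of the score, by 0.49 (SE 0.0998) on the log2 scale. The score is an average of unlike genes: the 15 markers differed by 0.97 (*P2ry12*) to 3.68 (*Ly86*) in the same comparison. The genes with the course most like that of *Cd33* were 2 of these markers, *Cx3cr1* (1.72) and *Csf1r* (1.83). A distance from the score is therefore not one from each marker.

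*Lag3* moved differently from the score. Relative to it, *Lag3* was at -2.68 ± 0.198 in CTL, -2.02 ± 0.290 in CPZ and -1.39 ± 0.238 in RCV, a difference of 1.29 (SE 0.148) between RCV and CTL with no overlap. *Cd22* and *Lilrb4a* were also higher relative to the score in CPZ and RCV than in CTL, by 1.79 to 2.30, but their CTL values rest on so few counts that the added prior count sets them. Whether microglia carried the reads was not tested, since the tissue was not sorted.

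**Figure D4:**
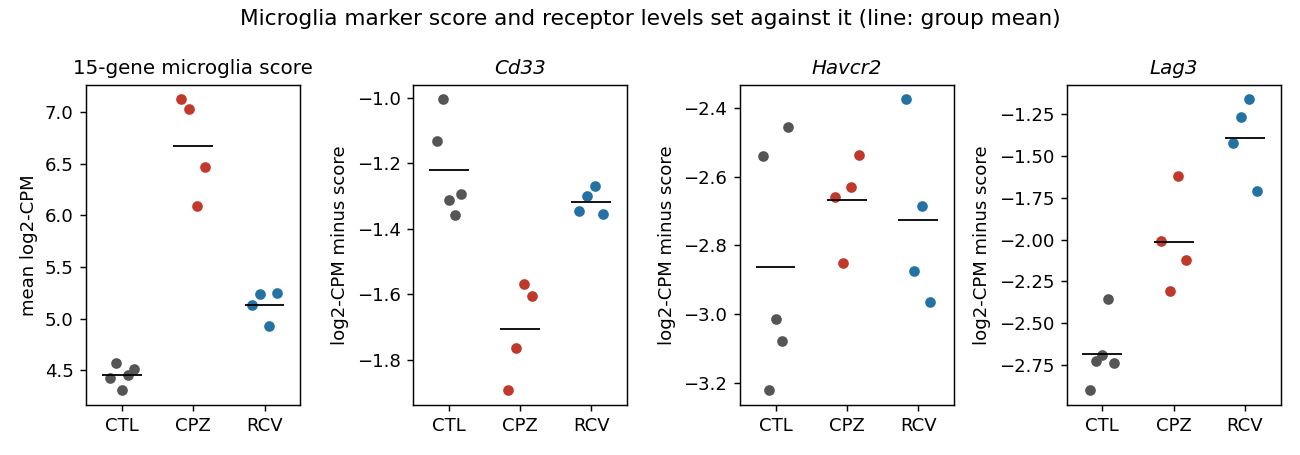
The mean log2-CPM of 15 microglia markers in each library (left), and the log2-CPM of *Cd33*, *Havcr2* and *Lag3* minus that score, with a line at each group mean. *Cd33* is lowest in CPZ (mean -1.71), *Havcr2* overlaps in all groups, and *Lag3* is highest in RCV (mean -1.39) and lowest in CTL (mean -2.68).

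Markers of other immune cells stood at low levels. The 14 T and NK cell markers summed to 1.5 to 3.52 CPM in CTL, 2.67 to 3.19 CPM in CPZ and 2.17 to 4.05 CPM in RCV, overlapping in every group, and *Cd3e* had 2, 3 and 3 counts over the whole CTL, CPZ and RCV groups. The 10 B cell markers summed to 12.4 to 27.8 CPM in CTL, 31.9 to 44.1 CPM in CPZ and 17.7 to 35.3 CPM in RCV, higher in CPZ than in CTL. Nearly all of that was *Ighm* (log2 difference 0.87, adjusted p = 0.104, edgeR), while *Ms4a1* had 1, 1 and 0 counts over the CTL, CPZ and RCV groups, *Cd79a* 4, 4 and 4 counts, *Pax5* 4, 4 and 37 counts, *Ighd* 4, 23 and 15 counts and *Cd79b* 5, 27 and 7 counts. *Cd22* had 3, 188 and 43 counts in the same groups, and the part of B cells in it was not tested. Blood monocyte and neutrophil markers summed to 23.5 to 38.0 CPM in CTL, 24.4 to 28.7 CPM in CPZ and 27.2 to 39.3 CPM in RCV, but most of that was *Vcan* (means of 23.98, 25.5 and 25.6 CPM), which brain cells also express. Of the rest, *S100a8* had 30, 4 and 40 counts and *S100a9* 40, 5 and 27 counts over the CTL, CPZ and RCV groups, and *Ly6g* and *Camp* were at 0 in CTL and CPZ. The 8 border macrophage markers overlapped as well, at 4.62 to 11.2, 7.36 to 12.1 and 5.83 to 13.2 CPM. Of 8 mast cell and plasmacytoid dendritic cell markers, *Mrgprb1* was at 0 in all libraries, and the sums overlapped (252 to 354, 263 to 322 and 220 to 390 CPM), mostly from *Tcf4*, which neurons also express.

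Genes with the most similar course were sought among tested genes whose log2-CPM averaged 1 or more, by the root mean square difference (RMS) of CTL-centred log2-CPM over the 13 libraries. For *Lag3*, out of 14142 genes, the nearest were *Cd48* (RMS 0.286), a leukocyte adhesion ligand, the noncoding RNA *AU020206* (0.315) and *Gfap* (0.365), the astrocyte intermediate filament. *Gfap* differed from CTL by 2.43 in CPZ and 1.80 in RCV on the log2 scale. For *Cd22*, out of 14143 genes, they were *Cd52* (0.454), a leukocyte glycoprotein, *Lilrb4a* (0.472) and the chemokine *Ccl6* (0.507). Among the members themselves, *Cd33* and *Cd300a* (0.446), *Cd22* and *Lilrb4a* (0.472) and *Cd33* and *Havcr2* (0.478) lay closest, and *Lag3* was no nearer than 0.763 (*Havcr2*) to any of them. All of these distances share libraries and are descriptions.

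Beyond the 8 members, 26 other inhibitory receptors were listed, of which 10 passed the count filter. Of the 10, 7 rose in CPZ against CTL and none fell, beside 7.66% of all genes called higher and 2.5% lower. The median log2 difference of the 10 was 1.87, against -0.02 for all genes tested. *Pdcd1*, *Milr1* and *Siglecf* could pass the filter only through their CPZ libraries. The count of rises and the median are therefore partly set by the filter and are a description only. *Pdcd1*, the receptor PD-1, had 126 counts over the CPZ group and 2 over the CTL group, a ratio of 68.0 (95% counting interval 18.4 to 568) with an adjusted p of 3.79e-05. *Milr1*, an ITIM receptor known from mast cells, rose by 4.55 (SE 0.691, adjusted p = 0.000294) and *Siglecf*, a Siglec of eosinophils and activated microglia, by 4.48 (SE 0.504, adjusted p = 1.3e-05). *Fcgr2b*, *Cd72*, *Lair1* and *Vsir* rose too, by 1.45 to 3.85. *Sirpa*, the CD47 receptor, differed by 0.21 (adjusted p = 0.115), *Ceacam1* by 0.22 and *Pecam1* by -0.11. The other 16, among them *Ctla4*, *Tigit* and *Cd96* of T cells, did not pass the count filter. Without the filter, *Cd300lf* (4.40, adjusted p = 4.12e-05) and *Pilra* (2.20, adjusted p = 0.00354) were called as well, chosen for mention after their values were seen.

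In RCV against CTL, none of the 10 passed edgeR's threshold, limma-voom also called 0 and DESeq2 called 2, while 6 had an unadjusted p under 0.05. The share of all genes with an unadjusted p under 0.05 is not given, here or for the lists below. Such counts are therefore a description only. Their median was 0.49 and that of all genes -0.004. *Siglecf* differed by 2.6 (adjusted p = 0.115) and *Pdcd1* by 3.38 (adjusted p = 0.24), from 19 counts against 2.

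Ligands of the members moved in both directions. Of 17 listed, 15 were tested, and 6 rose and 1 fell in CPZ against CTL (median 1.09, all genes -0.02). Over all genes tested, 7.66% were called higher and 2.5% lower. *Lgals3*, galectin-3, which binds LAG-3, rose by 2.96 (SE 0.451, adjusted p = 0.000366). *Lgals9*, galectin-9, the ligand of TIM-3, rose by 2.14 (SE 0.227, adjusted p = 1.03e-05). The MHC class I genes *B2m*, *H2-K1* and *H2-D1*, whose products bind PirB, rose by 2.10, 1.78 and 1.71. The gene that fell was *Mag*, the myelin protein bound by PirB, by 1.29 on the log2 scale (adjusted p = 0.00323), from 213 ± 46.7 CPM in CTL to 87.5 ± 29.4 CPM in CPZ, and it stood at 231 ± 54.7 CPM in RCV. *Rtn4* (Nogo) and *Omg* differed by -0.14 and -0.13, and neither passed the test.

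In RCV against CTL, 4 ligand genes were called higher: *H2-K1* by 0.91 (adjusted p = 0.0065), *B2m* by 0.86 (adjusted p = 0.00902), *H2-D1* by 0.99 (adjusted p = 0.0224) and *H2-Aa*, an MHC class II chain of the kind that LAG-3 binds, by 2.15 (adjusted p = 0.0429). In that comparison 0.36% of all genes tested were called higher. *H2-K1* kept its call whichever library was left out but lost it on the 3 TPM scales (0.86 to 0.87, adjusted p = 0.161 to 0.33). *B2m* lost it without RCV2 (0.78, adjusted p = 0.0536). *H2-D1* lost it without CTL1, CTL4, CTL5, RCV1 or RCV2, where it was 0.85 to 0.98 (adjusted p = 0.0641 to 0.086). *H2-Aa* lost it without any of the CTL libraries, CPZ1, CPZ2, RCV1, RCV2 or RCV4, at 1.84 to 2.39 (adjusted p = 0.0515 to 0.153). *H2-Aa* was not called in CPZ against CTL (1.24, adjusted p = 0.0977), and *Lgals3* and *Lgals9* were not called in RCV (1.93 and 0.84).

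The enzymes that make, attach or remove sialic acid, the ligand of the Siglecs, showed small differences. Of 14 listed, 13 were tested, with a median of -0.012 in CPZ against CTL. *St3gal6*, a sialyltransferase, was the only one called, with a difference of 0.52 (SE 0.111, adjusted p = 0.00513), and none fell. Among all genes tested, 7.66% were called higher, so 1 call in 13 is near that share. *St6gal1*, which makes the α2,6 linkage that CD22 recognises, differed by 0.27 (adjusted p = 0.102), from 26.3 ± 3.25 CPM in CTL to 31.6 ± 1.93 CPM in CPZ and 26.9 ± 2.81 CPM in RCV. None was called in RCV against CTL by edgeR, DESeq2 or limma-voom, with 1 at an unadjusted p under 0.05. In CPZ against RCV, *St3gal6* was called (0.43, adjusted p = 0.0377) and lost that call without CPZ1, CPZ2, CPZ4, RCV1, RCV3 or RCV4, at 0.36 to 0.47 (adjusted p = 0.0507 to 0.126).

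Of the signalling partners downstream of the receptors, 17 of 18 were tested and 11 rose in CPZ against CTL, beside 7.66% of all genes. Their median was 1.24 and that of all genes -0.02. The 3 phosphatases that ITIMs recruit differed among themselves. *Ptpn6* (SHP-1) went from 3.09 ± 1.08 CPM in CTL to 22.2 ± 7.6 CPM in CPZ, a log2 difference of 2.84 (SE 0.260, adjusted p = 3.24e-06), and to 6.05 ± 0.796 CPM in RCV. *Inpp5d* (SHIP1) went from 13.2 ± 1.84 to 46.9 ± 16.3 CPM, a difference of 1.83 (SE 0.202), and to 20.8 ± 1.52 CPM. *Ptpn11* (SHP-2), which most cell types express, was at 205 ± 12.3, 192 ± 8.74 and 219 ± 15.6 CPM and was not called (-0.09, adjusted p = 0.448).

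Src-family kinases of myeloid cells rose with them, *Fgr* by 4.22 (SE 0.507) and *Lyn* by 2.09, and so did *Vav1* by 2.36 and *Syk* by 1.45. *Fgr* had 7 counts over the CTL group, 130 over CPZ and 28 over RCV. It could pass the count filter only through its CPZ libraries, so its place among the called genes is partly set by the filter. *Src*, *Fyn* and *Csk* differed by -0.10 to 0.06 and were not called. *Adam10* and *Adam17*, the proteases that cut LAG-3 from the cell surface, rose by 0.29 (adjusted p = 0.00419) and 0.67 (adjusted p = 0.00114). In RCV against CTL, none of the 17 passed with edgeR, with DESeq2 or with limma-voom, and 7 had an unadjusted p under 0.05. *Ptpn6* differed there by 0.96 (adjusted p = 0.349) and *Inpp5d* by 0.66 (adjusted p = 0.421).

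The activating counterparts, receptors and adaptors that oppose the inhibitory ones, were listed as 23 symbols, 18 of them in the annotation and 5 tested. All 5 tested genes rose in CPZ against CTL, beside 7.66% of all genes. *Tyrobp* (DAP12), the shared adaptor, rose by 3.46 (SE 0.278), *Fcer1g* by 3.39, *Trem2* by 3.04, *Cd300c2* by 2.79 and *Siglech* by 1.25. *Cd300c2*, the activating relative of *Cd300a*, went from 1.85 ± 0.266 CPM in CTL to 12.9 ± 3.89 CPM in CPZ and 4.60 ± 1.05 CPM in RCV. In RCV against CTL it alone was called (1.32, adjusted p = 0.0407), and it lost the call without any of the CTL libraries, CPZ2, RCV1, RCV2 or RCV4, at 1.18 to 1.41 (adjusted p = 0.0527 to 0.202).

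Other *Cd300* genes were below the filter. The inhibitory *Cd300lf* had 6.13 counts over the CTL group, 127 over CPZ and 14 over RCV, and the activating *Cd300lb* had 1, 39 and 10.

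**Figure D5:**
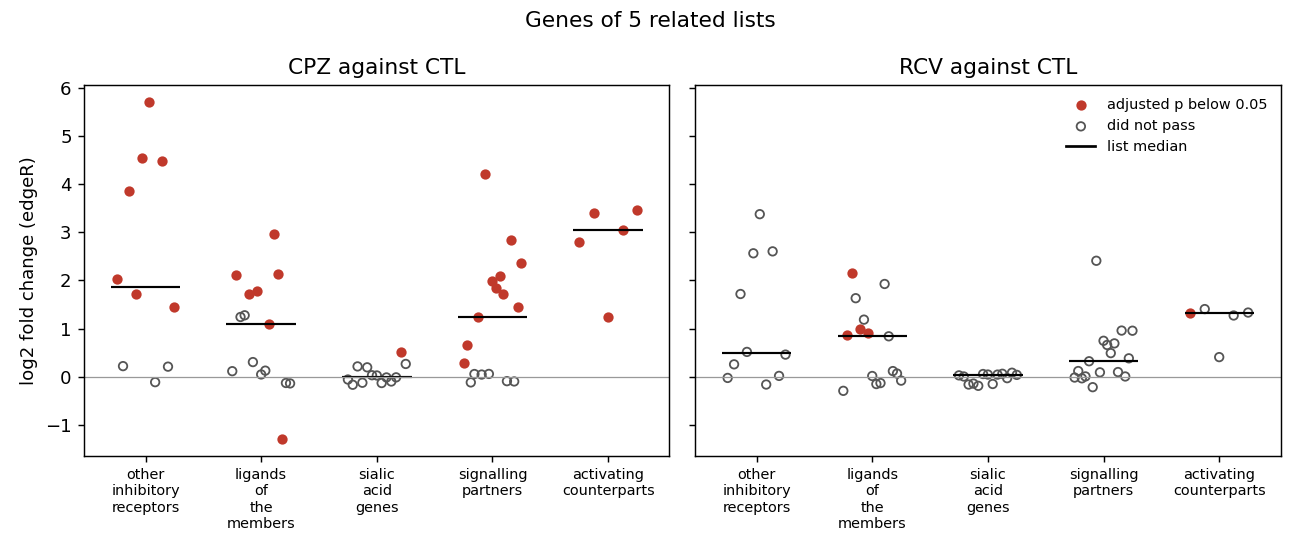
Log2 fold changes (edgeR) of the tested genes of 5 lists related to the receptors, for CPZ against CTL (left) and RCV against CTL (right), with filled points for an adjusted p below 0.05 and a line at each list's median. The medians for CPZ against CTL are 1.87 for other inhibitory receptors, 1.09 for ligands, -0.012 for sialic acid genes, 1.24 for signalling partners and 3.04 for activating counterparts, and filled points are few on the right.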

How the data were processed

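RNA of 13 mouse brain hemispheres was sequenced from poly(A)-selected libraries (50 bp paired-end reads). The submitters' processing notes name STAR, RSEM and the build mm10 without roles or versions, and no source used here gives strand settings. The deposited expected counts are RSEM-type estimates per gene, in which reads that fit several genes are divided. The deposited TPM values scale those estimates by the authors' effective length and by library. Counts were rounded and fitted with edgeR 4.0.16 in R 4.3.3 (TMM, filterByExpr, robust quasi-likelihood test), 1 fit over all 13 libraries, with Benjamini-Hochberg adjustment at 0.05 over 14985 genes of 55401. The 92 spike-in rows were left out. CPM values use the TMM-scaled library sizes, log2-CPM a prior count of 2. The method was tested on simulated counts. Groups came from the treatment label, replicate numbers from the titles, where the recovery libraries carry the prefix Veh.

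The members and lists were chosen with earlier results of these data known, so members carry no p-value and all 8 are reported. Named genes of the 5 lists were, per list, the 3 called genes with the largest rise and the 2 with the largest fall in CPZ against CTL, up to 3 called in RCV against CTL, and always *Ptpn6*, *Ptpn11*, *Inpp5d*, *Mag*, *St6gal1* and genes near or related to a member. The other list genes named (among them *Sirpa*, *Lyn* and *Adam10*) were added after their values were seen. The symbol *Lilrb4b* was not matched, and the file's *Lilr4b* was used. Counting intervals are exact binomial at 95% and cover counting error only. Alternatives used DESeq2 1.42.0 and limma 3.58.1 (voom, or log2(TPM + 1) and log2(TPM + 0.1) with a TPM of at least 1 in 4 libraries), no filter, 2 groups only, a replicate block, each library left out, and a minimum fold of 1.5. Replicates differed by more than sampling noise in all 22 within-group pairs (chi-square of 4.45 to 17 per gene). Promoter letters came from RefSeq and gene positions from GENCODE M21, which holds 98.1% of the files' gene identifiers.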

Additional observations from a re-analysis of the deposited data

Results flagged for a closer look

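In 3 of 45 groups of 4 or 5 libraries, over the members and the genes always named, 1 library stood apart by Dixon's criterion at 95%, which chance alone meets in about 1 group in 20. *Siglece* in RCV3 was at 0.962 CPM, from 5 counts, against 0.162 to 0.293 CPM in the other RCV libraries. *Mag* in CPZ4 was at 131 CPM against 71.2 to 75.6 CPM in the other CPZ libraries, and without CPZ4 the log2 difference of *Mag* between CPZ and CTL was -1.55 in place of -1.29, on the same side of the threshold. *Inpp5d* in CTL2 was at 16.4 CPM against 11.7 to 12.8 CPM in the other CTL libraries.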

How the results depend on the processing

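The replicate numbers did not pair the libraries: deviations of same-numbered libraries correlated at -0.199 to 0.136, over 0.1 in 3 of 12 pairs, and 1 of 13 libraries correlated best with its own number. With the replicate number as a block, the calls in RCV against CTL were 2 members, 2 ligands and 0 activating counterparts, and 0 sialic acid genes in CPZ against RCV. Leaving out each library in turn gave 0 to 1 other inhibitory receptors, 1 to 4 ligands and 0 to 4 activating counterparts in RCV against CTL, and 0 to 1 sialic acid genes in CPZ against RCV. It turned the sign of 2 uncalled differences in RCV against CTL, *Mag* (-0.038 to 0.25) and *St6gal1* (-0.03 to 0.086). In RCV against CTL, DESeq2 called 2 other inhibitory receptors and 4 activating counterparts, limma-voom 2 ligands and 0 activating counterparts, and the fit of only the 2 groups 1 other inhibitory receptor, 1 signalling partner and 4 activating counterparts. Without the count filter, 1 other inhibitory receptor was called there. On log2(TPM + 1), log2(TPM + 0.1) and log2(TPM + 1) without a filter, the calls in RCV against CTL were 2, 2 and 1 ligands and 3, 3 and 0 activating counterparts. In CPZ against RCV they were 6, 5 and 6 signalling partners, and the last 2 gave 2 and 3 members and 3 and 4 other inhibitory receptors. The sialic acid calls in CPZ against CTL and in CPZ against RCV fell to 0 on all 3 TPM scales and with a minimum fold of 1.5, and the second also with 2 groups only. The cause of these changes was not tested. All other counts of calls stayed within 1.5 times. Depth limits *Siglece*, *Pirb* and the CTL levels of *Cd22* and *Lilrb4a*, each on a few counts per library.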
